A study of Rattus norvegicus with 15 samples.

Results

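Immediate early genes in rat cortical astrocytes were described across 5 treatment groups, with 10 of the 32552 genes in the count files as members: Fos (ENSRNOG00000008015), Fosb (ENSRNOG00000046667), Jun (ENSRNOG00000026293), Junb (ENSRNOG00000042838), Atf3 (ENSRNOG00000003745), Egr1 (ENSRNOG00000019422), Egr2 (ENSRNOG00000000640), Egr3 (ENSRNOG00000017828), Nr4a1 (ENSRNOG00000007607) and Dusp1 (ENSRNOG00000003977). The members were chosen by identifier, and each was kept because its chromosome in the files was the one given for its symbol, which held for 10 of 10. Of these, 9 encode transcription factors. Dusp1 encodes a phosphatase and is an immediate early gene without being a transcription factor.

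The study delivered mitochondria, or the mRNA that comes with them, to astrocytes after oxidative stress and sequenced polyadenylated RNA from 15 libraries, 3 per group. Control cells received vehicle water, and the other 4 groups received H2O2 at 100 µM for 30 min. After 24 h the stressed cells were given nothing further (H2O2), unmodified placental mitochondria (H2O2 + mitochondria), the same organelles in a DOTAP/DOPE lipid coat (H2O2 + MitoCoat), or mitochondria-associated mRNA in these lipids (H2O2 + MitoCoat-mRNA), and RNA was taken 6 h later. No unstressed cells with mitochondria were sequenced in the files used here, so each treatment was seen on top of H2O2 only. The cells were primary cultures from the cortex of newborn Sprague Dawley rats, and the study describes the libraries of a group as biological replicates. The labels do not tie a library to a culture or animal, so the p-values measure the spread between these libraries. Recipient cells and donor placenta were both rat, so RNA carried in with the organelles could not be told apart from astrocyte RNA. The sample descriptions speak of RNA from mitochondria-enriched fractions, whereas the methods describe treated astrocytes, and astrocyte markers were not checked here because the files carry identifiers without symbols. Libraries held 35315654 to 46778663 counts, and the lowest member count in any library was 52 (Egr3).

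Immediate early genes are switched on within minutes of a stimulus without new protein synthesis, through factors already bound near their promoters, chiefly serum response factor at CArG boxes and CREB at cAMP response elements (CREs). Fos and Jun family proteins pair to form the AP-1 transcription factor, Egr proteins are zinc finger activators, and Nr4a1 is an orphan nuclear receptor. In cultured astrocytes they answer to serum, growth factors, calcium and injury, and their RNAs are short-lived.

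The regulatory letters upstream of the members were read from RefSeq promoters of the GRCr8 assembly, a later build than the Rnor6.0 of the counts, as the 250 bases before each gene's start. A promoter was given for 6 of the 10 members (Fosb, Junb, Egr1, Egr2, Nr4a1 and Dusp1) and not for Fos, Jun, Atf3 and Egr3. The 4 shown here carry the CArG boxes or CRE letters that set the members' promoters side by side. Capitals mark the CArG box (by its usual consensus), the CRE TGACGTCA and its core TGACG on either strand, and TATAAA.
Egr1 promoter (chr18:26736828-26737077, plus strand): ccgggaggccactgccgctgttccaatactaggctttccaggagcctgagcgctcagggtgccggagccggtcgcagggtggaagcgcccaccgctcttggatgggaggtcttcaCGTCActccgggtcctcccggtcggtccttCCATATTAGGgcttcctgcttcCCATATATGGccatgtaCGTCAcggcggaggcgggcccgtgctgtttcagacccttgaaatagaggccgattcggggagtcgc
Egr2 promoter (chr20:21054442-21054691, minus strand): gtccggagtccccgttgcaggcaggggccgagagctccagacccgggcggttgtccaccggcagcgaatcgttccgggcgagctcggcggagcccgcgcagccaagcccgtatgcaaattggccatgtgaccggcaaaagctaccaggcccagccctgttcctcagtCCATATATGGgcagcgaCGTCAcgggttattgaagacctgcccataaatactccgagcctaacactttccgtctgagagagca
Nr4a1 promoter (chr7:134259888-134260137, plus strand): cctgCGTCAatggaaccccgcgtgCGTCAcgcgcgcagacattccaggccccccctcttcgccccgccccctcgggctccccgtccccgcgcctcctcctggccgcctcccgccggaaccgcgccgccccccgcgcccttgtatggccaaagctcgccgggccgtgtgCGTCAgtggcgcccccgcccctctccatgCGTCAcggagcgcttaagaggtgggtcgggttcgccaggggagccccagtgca
Dusp1 promoter (chr10:17184603-17184852, plus strand): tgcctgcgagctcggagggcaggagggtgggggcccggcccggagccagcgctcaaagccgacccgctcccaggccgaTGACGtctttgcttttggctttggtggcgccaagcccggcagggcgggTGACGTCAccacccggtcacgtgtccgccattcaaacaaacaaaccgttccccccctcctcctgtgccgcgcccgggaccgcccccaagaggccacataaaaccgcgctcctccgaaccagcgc

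CArG boxes stood in 2 of the 6 promoters, and 1.5% of 33469 rat promoters of this length held one. Egr1 had 2, at 105 to 96 and at 83 to 74 bases before the start, and Egr2 had 1, again at 83 to 74. Both also had the core TGACG on the opposite strand at 66 to 62. Dusp1, the phosphatase, held the only full CRE, at 124 to 117, against 1.59% of all promoters. The core TGACG, counted also inside a full CRE, was present in 5 of 6 (not Fosb), against 18.2%, and Nr4a1 carried 4 copies. The AP-1 letters TGANTCA were in 0 of the 6 windows (6.34% of all promoters), the EGR letters GCGNGGGCG in Nr4a1 only (4.29%), and TATAAA in Fosb and Junb (12.9%). All motifs were searched on both strands, and these matches describe letters, not bound sites.

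On Rnor6.0, the build of the counts, the AP-1 genes are compact. Fos lies at chr6:109300433-109303299 on the plus strand and Fosb at chr1:80214494-80221710 on the minus strand, each with 4 merged exon blocks. Jun (chr5:114011189-114014277, minus) and Junb (chr19:26092974-26094756, minus) are single-exon genes of 3089 and 1783 bases. Egr1 (chr18:27657628-27661429, plus) and Egr2 (chr20:22454463-22459025, minus) have 2 exon blocks, and Egr3 (chr15:51756736-51760722, plus) has 4. Atf3 spans the longest stretch, chr13:109817728-109849632 on the minus strand, with 4 blocks and 2909 exonic bases. Nr4a1 (chr7:142905758-142920216, plus) has 8 blocks, and Dusp1 (chr10:16970626-16973418, plus) has 4. Counts were summed over all exon blocks, so transcript forms of a gene, such as those of Atf3 and Fosb, are not separated.

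Levels are given as CPM, counts divided by library size after TMM scaling, and between genes as CPM per kilobase of exon. Per kilobase in control cells, Fos was the highest member at 448 ± 73.7 (SD, n = 3) and ranked 159 of 32552 genes, followed by Dusp1 at 366 ± 26.6 (rank 196), Junb at 246 ± 54.6 (rank 314) and Jun at 193 ± 21.5 (rank 400). Egr1 (97.5 ± 33.1) and Nr4a1 (88.1 ± 10.8) stood lower, and Atf3 (45.3 ± 10.9) and Fosb (40.1 ± 10.4) lower again. Egr2 at 5.74 ± 1.63 and Egr3 at 3.48 ± 1.46 were the lowest members, at ranks 8678 and 10204. The untreated cultures thus held Fos, Dusp1, Junb and Jun among their most abundant transcripts by this measure. Together the members took 0.301 to 0.378% of the counts in the control libraries, 0.210 to 0.254% with H2O2, 0.169 to 0.204% with mitochondria, 0.157 to 0.191% with MitoCoat and 0.190 to 0.22% with MitoCoat-mRNA. Every control library was above every stressed library in this share.

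**Figure D1:**
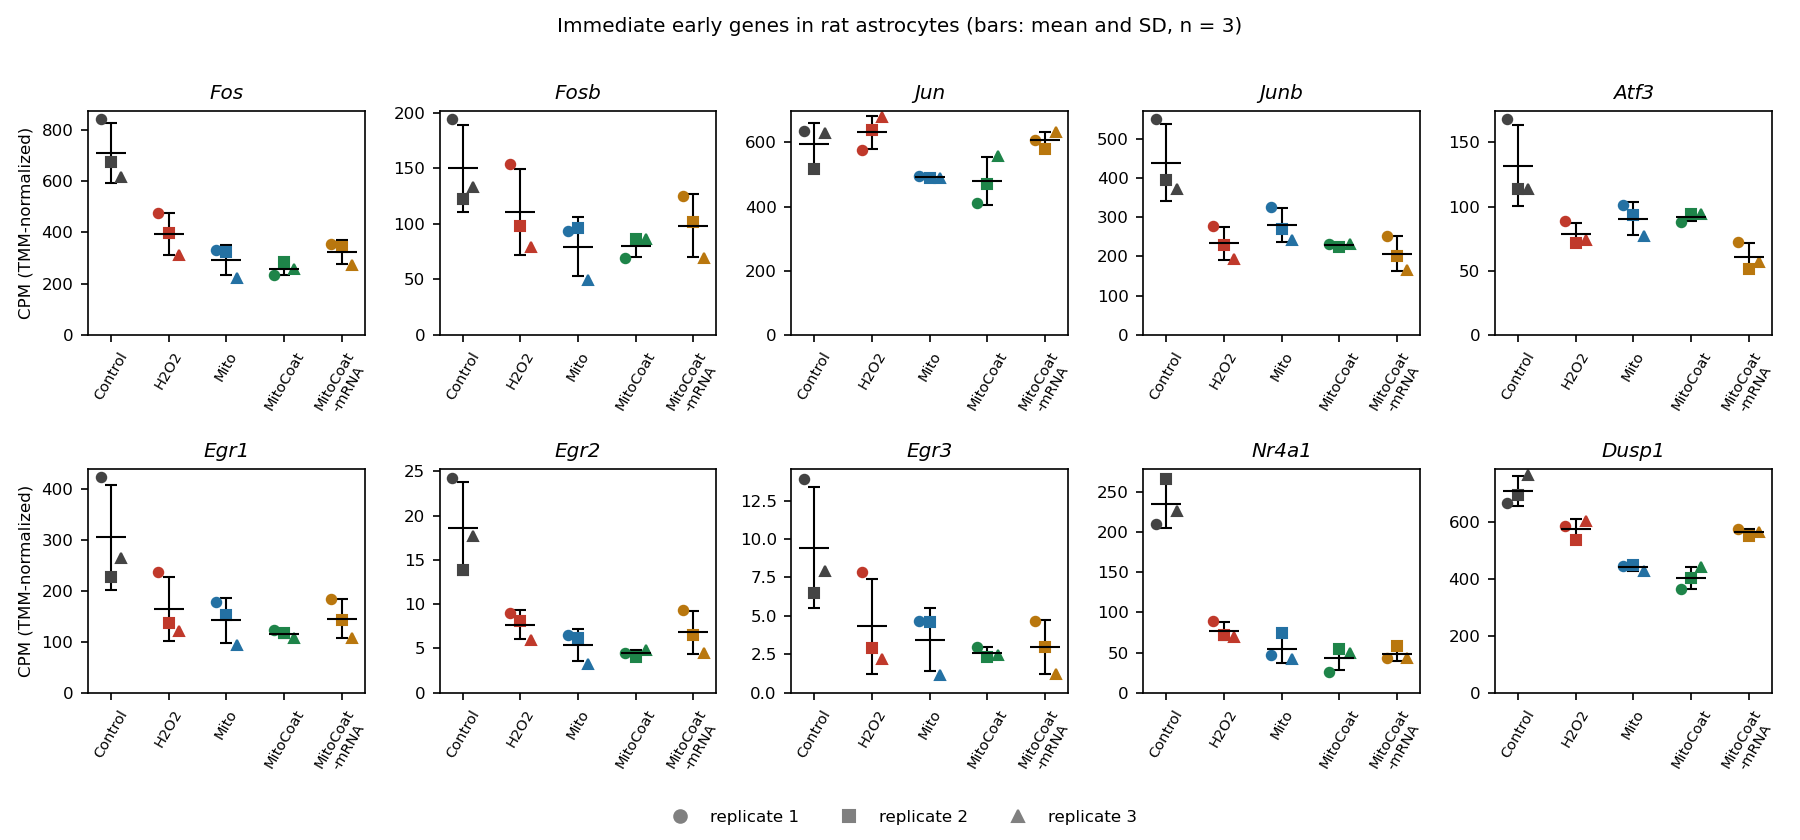
TMM-normalized CPM (vertical axes, linear from 0) of each of the 10 genes in the 15 libraries, by group (control, H2O2, and H2O2 followed by mitochondria, written Mito, by MitoCoat or by MitoCoat-mRNA). Points are libraries with the symbol giving the replicate number, and bars are the mean and SD of 3. Control stood highest for 9 genes, and for Jun the mean was highest with H2O2 (632 CPM).

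H2O2 against control asked what the stress alone had left a day later. Of the 10 members, 5 fell and 0 rose: Nr4a1, Egr2, Junb, Fos and Atf3. Among all 15650 genes tested 4.22% were called lower (edgeR's quasi-likelihood test, Benjamini-Hochberg adjusted p under 0.05). The median log2 change of the members was -0.86, from -1.59 to 0.10, against 0.01 over all genes tested. In 6 of the 10, all H2O2 libraries lay below all control libraries (those 5 and Dusp1), and 13.8% of all genes separated this way. In these bulk libraries fewer cells making a transcript and less of it per cell cannot be told apart.

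Nr4a1, the orphan nuclear receptor, had the largest change. Control libraries stood at 211, 266 and 226 CPM and H2O2 libraries at 89.7, 71.5 and 69.9 CPM. The groups were far apart, with no H2O2 library near the lowest control, and the fold change was -1.59 ± 0.13 on the log2 scale (SE; edgeR adjusted p = 0.000862). Nr4a1 held 4 copies of the core TGACG in the sequence above, and Dusp1, whose change was not called, held 3. A link between these letters and the change was not tested. The Nr4a1 call was kept whichever of the 6 libraries was left out.

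The Egr genes shared a direction but not a precision. Egr2 was at 24.2, 13.8 and 17.7 CPM in control and 9.02, 8.16 and 5.91 CPM with H2O2, with no overlap, and fell by 1.26 ± 0.23 on the log2 scale (edgeR adjusted p = 0.0158). Egr1, in contrast, ran at 423, 228 and 264 CPM in control and 237, 138 and 121 CPM with H2O2. The first H2O2 library of Egr1 thus lay above the lowest control library, and its log2 change of -0.87 ± 0.29 was not called (edgeR adjusted p = 0.117). Egr3 ran from 6.48 to 13.9 CPM in control and 2.17 to 7.87 CPM with H2O2. Its log2 change of -1.12 carried a 95% interval of -2.20 to -0.03 (edgeR adjusted p = 0.21). Without H2O2 replicate 1, both Egr1 and Egr3 were called lower (edgeR adjusted p = 0.0361 and 0.0295).

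Within AP-1, the members split. Fos, the usual dimer partner of Jun, was at 843, 675 and 618 CPM in control and 475, 397 and 310 CPM with H2O2, and fell by 0.84 ± 0.17 on the log2 scale (edgeR adjusted p = 0.0235). All stressed libraries were below the lowest control. Junb, a Jun family member that is a weaker activator than Jun, went from 550, 394 and 372 CPM to 278, 230 and 193 CPM, again without overlap, and fell by 0.90 ± 0.18 (edgeR adjusted p = 0.0208). Jun did not follow. It was at 636, 518 and 630 CPM in control and 577, 639 and 680 CPM with H2O2, overlapping, with a log2 change of 0.10 and an interval of -0.15 to 0.35 (edgeR adjusted p = 0.643). Fosb, at 194, 122 and 133 CPM against 154, 98.3 and 79.5 CPM, overlapped as well (log2 change -0.43, interval -0.998 to 0.14, edgeR adjusted p = 0.353).

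Atf3, a stress-responsive factor of the ATF/CREB family, went from 168, 113 and 114 CPM in control to 88.7, 71.7 and 74.2 CPM with H2O2. No library overlapped, and it fell by 0.74 ± 0.16 on the log2 scale (edgeR adjusted p = 0.0304). Dusp1, which dephosphorylates MAP kinases, was at 666, 694 and 766 CPM in control and 587, 535 and 604 CPM with H2O2. The groups were apart, but the log2 change of -0.29 (interval -0.50 to -0.07) was not called (edgeR adjusted p = 0.114). The number of members called changed with single libraries, as did the number of all genes called lower, 660 with all libraries. It was 2 (Egr2 and Nr4a1) without control replicate 2 or without H2O2 replicate 2, and 1 (Nr4a1) without H2O2 replicate 3. In those fits 231, 350 and 307 genes were called lower. Without H2O2 replicate 1 the number was 7, with Egr1 and Egr3 added, and 669 genes were called lower.

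**Figure D2:**
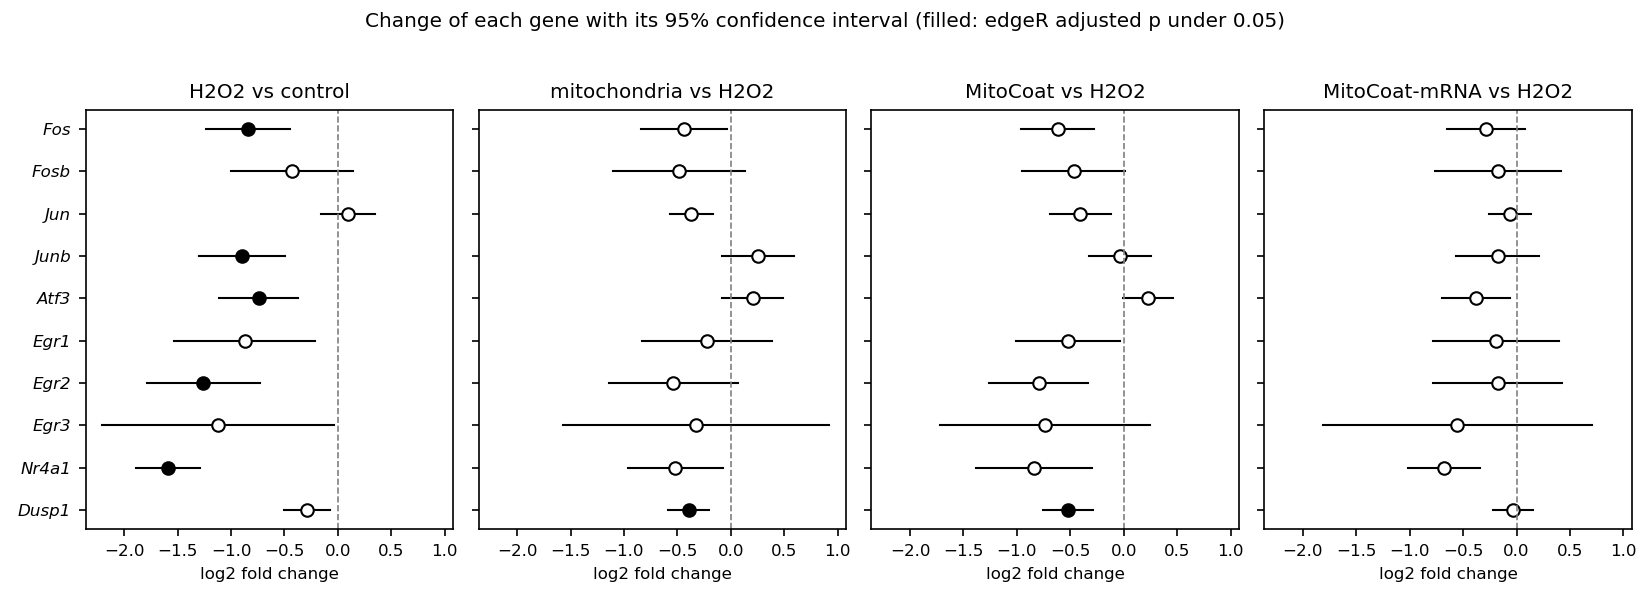
Log2 fold change of each gene (horizontal axes) in H2O2 against control and in each treatment against H2O2, with bars for 95% intervals from edgeR and filled points for adjusted p under 0.05. H2O2 against control has 5 filled points, mitochondria and MitoCoat against H2O2 have 1 each (Dusp1), and MitoCoat-mRNA has 0, and the last 3 panels share the H2O2 libraries.

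MitoCoat, mitochondria and MitoCoat-mRNA were each set against the same 3 H2O2 libraries, so these comparisons are not independent of one another. Dusp1 was the member called with all libraries, but not in every fit that left a library out. It was lower with both kinds of organelle. It stood at 445, 449 and 427 CPM with mitochondria and at 364, 404 and 441 CPM with MitoCoat, all under the lowest H2O2 library of 535 CPM. With MitoCoat-mRNA it stayed among the H2O2 values, at 575, 551 and 566 CPM. The log2 changes were -0.39 ± 0.09 with mitochondria (edgeR adjusted p = 0.0369), -0.52 ± 0.10 with MitoCoat (edgeR adjusted p = 0.0257) and -0.03 with MitoCoat-mRNA (interval -0.22 to 0.15, edgeR adjusted p = 1.0).

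With unmodified mitochondria, 1 of 10 members fell and 0 rose, against 1.73% of 15613 genes called lower. The median log2 change of the members was -0.38, and that of all genes -0.01. Jun and Dusp1 had no overlap with H2O2, which 9.43% of all genes showed in this direction. Jun sat at 495, 490 and 488 CPM, the tightest group of any member, and its log2 change was -0.37 ± 0.09 (edgeR adjusted p = 0.0555). Junb, with 326, 270 and 242 CPM, and Atf3, with 101, 93.7 and 76.7 CPM, had log2 changes above 0 (0.25 and 0.21) and overlapped the H2O2 libraries. Samples with the same replicate number deviated together in this comparison, and with the replicate number as a block 6 members were called lower, against 3.84% of all genes: Fos (log2 change -0.44, edgeR adjusted p = 0.00274), Fosb, Jun, Egr2, Nr4a1 and Dusp1. Without the block the count was 0 when H2O2 replicate 3, mitochondria replicate 1 or mitochondria replicate 3 was left out (153, 102 and 166 of all genes lower, against 270 with all libraries), and the 1 member called was Jun without H2O2 replicate 1 and Nr4a1 without mitochondria replicate 2.

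With MitoCoat, 1 of 10 members fell, against 1.58% of 15724 genes, and the median log2 change was -0.52 against 0.002 over all genes. For 5 members (Fos, Jun, Egr2, Nr4a1 and Dusp1) all MitoCoat libraries were below all H2O2 libraries, and 9.9% of all genes separated this way. Fos was at 233, 284 and 257 CPM, under the lowest H2O2 library of 310 CPM, with a log2 change of -0.62 ± 0.15 (edgeR adjusted p = 0.0705). Egr2 was at 4.48, 4.06 and 4.84 CPM, also wholly below H2O2 (log2 change -0.80 ± 0.21, edgeR adjusted p = 0.0839). Nr4a1 spread more, at 25.6, 54.9 and 49.4 CPM (log2 change -0.84 ± 0.24, edgeR adjusted p = 0.119), and Jun ran at 410, 470 and 559 CPM (log2 change -0.41, edgeR adjusted p = 0.154). DESeq2's Wald test called these 5 members, with 2.18% of all genes called lower. The edgeR count was 0 without H2O2 replicate 1, MitoCoat replicate 1 or MitoCoat replicate 2 (125, 161 and 91 of all genes lower, against 248 with all libraries), and without H2O2 replicate 3 the 1 member called was Fos.

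With MitoCoat-mRNA, 0 of 10 members were called, as was 0% of 15506 genes, by edgeR and by DESeq2. At an unadjusted p under 0.05, edgeR had 2 of 10 members and 2.99% of all genes. They were Nr4a1 (43.3, 58.6 and 42.9 CPM, log2 change -0.68, interval -1.01 to -0.34) and Atf3 (72.7, 51.2 and 56.9 CPM, log2 change -0.38, interval -0.70 to -0.06). Nr4a1 was the 1 member with no overlap, against 4.54% of genes. Atf3 was not at an unadjusted p under 0.05 without H2O2 replicate 1 or MitoCoat-mRNA replicate 2 or 3, which left 1 member (Nr4a1). Of all genes, 379, 378 and 326 were at that p in those fits, against 463 with all libraries. Without H2O2 replicate 3 there were 3 members, Fos being added, and 799 genes. For Jun the interval of the log2 change was -0.26 to 0.14, and for Dusp1 -0.22 to 0.15. Same-numbered libraries deviated together here too. With the replicate block 0 members were called, but 5 were at an unadjusted p under 0.05 (Fos, Junb, Atf3, Egr3 and Nr4a1), each lower, against 4.91% of all genes in either direction. The interval of the log2 change was then -0.48 to -0.08 for Fos and -1.04 to -0.006 for Egr3, against -0.65 to 0.08 and -1.81 to 0.71 without the block (edgeR adjusted p = 0.949 with the block in both).

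The carriers were then compared with each other. MitoCoat against unmodified mitochondria, organelles that differ by the lipid coat, had 0 of 10 members called, and edgeR called 0% of 15731 genes lower. At an unadjusted p under 0.05 there was 1 member, Junb (232, 225 and 230 CPM with MitoCoat, log2 change -0.29, edgeR adjusted p = 0.889), against 4.95% of all genes. DESeq2 and the replicate block called 0 members, and with the block Junb was again the 1 member at an unadjusted p under 0.05, against 8.91% of genes. Without the block, 0 members were at that p when mitochondria replicate 1 or MitoCoat replicate 2 was left out (429 and 399 of all genes), and 5 when mitochondria replicate 3 was left out (Fos, Junb, Egr1, Egr2 and Egr3, with 1050 of all genes). Intervals of the log2 change were -0.33 to 0.06 for Dusp1, -0.28 to 0.21 for Jun and -0.50 to 0.13 for Fos, and were wider for Nr4a1 (-0.94 to 0.29) and Egr3 (-1.40 to 0.57). These intervals leave room for differences in either direction for Jun, Fos, Egr3, Nr4a1 and Dusp1.

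Against MitoCoat-mRNA, Dusp1 fell with both kinds of organelle, and the calls for Dusp1, Jun and Atf3 changed with the libraries used. For mitochondria, Dusp1 fell by 0.35 ± 0.07 (edgeR adjusted p = 0.0204) and Jun fell by 0.30 ± 0.07 (edgeR adjusted p = 0.0455) on the log2 scale, with 1.41% of 15574 genes called lower. Jun ran at 608, 580 and 633 CPM with MitoCoat-mRNA, above the highest mitochondria library of 495 CPM. Atf3 stood apart too, but its log2 change of 0.59 was not called (edgeR adjusted p = 0.0518). With the replicate block, which the shared deviations of these libraries called for, 3 members were lower (Fosb, Jun and Dusp1) against 3.14% of genes, and 2 were higher (Junb by 0.45 and Atf3 by 0.60) against 4.19%. Without the block the count was 0 when MitoCoat-mRNA replicate 2 or 3, or mitochondria replicate 1 or 2, was left out. Over all genes, 95, 165, 117 and 119 were called lower in those fits, against 220 with all libraries. Atf3 was called in place of Jun without MitoCoat-mRNA replicate 1 or mitochondria replicate 3.

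For MitoCoat against MitoCoat-mRNA, Dusp1 was lower by a log2 difference of -0.50 ± 0.09 (edgeR adjusted p = 0.0154, 1.42% of 15649 genes called lower). Atf3 was higher by 0.60 ± 0.12 (edgeR adjusted p = 0.0264, 1.57% called higher), with 88.2, 94.1 and 94.1 CPM under MitoCoat. In both genes the groups were apart. Jun was lower in each MitoCoat library than in any MitoCoat-mRNA library, with a log2 difference of -0.35 (edgeR adjusted p = 0.159). Neither call was made without MitoCoat-mRNA replicate 2, MitoCoat-mRNA replicate 3 or MitoCoat replicate 2. Of all genes, 163, 260 and 209 were called in those fits in either direction, against 467 with all libraries. Without MitoCoat replicate 3, Jun was called in place of Atf3. Dusp1 therefore had an order across the stressed groups in which H2O2 and MitoCoat-mRNA overlapped, mitochondria and MitoCoat overlapped, and the first pair lay above the second.

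Each treated group was also set against the unstressed control, whose 3 libraries these comparisons share. Mitochondria had 8 members lower (all except Jun and Egr3) against 12.2% of 15676 genes, MitoCoat 9 (all except Jun) against 13.1% of 15764 genes, and MitoCoat-mRNA 8 (all except Fosb and Jun) against 8.72% of 15611 genes. With the replicate block, MitoCoat-mRNA had 9, Fosb being added, against 19.5% of genes. No member was called higher. All libraries lay below all controls for 10, 9 and 8 members in that order, against 19.7%, 20.6% and 18.2% of genes. The median log2 change of the members was -1.01, -1.18 and -1.10, and that of all genes was between 0.003 and 0.01.

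Nr4a1 had the largest of these changes in each group, by -2.11 ± 0.20 with mitochondria, -2.45 ± 0.25 with MitoCoat and -2.27 ± 0.15 with MitoCoat-mRNA on the log2 scale (edgeR adjusted p = 0.000176, 0.000287 and 0.000114). Egr2 had log2 changes of -1.80, -2.07 and -1.44, and Egr3 of -1.45, -1.87 and -1.67, in the same order of groups. Egr3 was at 4.68, 4.58 and 1.13 CPM with mitochondria, 3.00, 2.32 and 2.46 CPM with MitoCoat and 4.70, 2.95 and 1.19 CPM with MitoCoat-mRNA, each library under the lowest control of 6.48 CPM. The Egr3 change with mitochondria was not called (edgeR adjusted p = 0.0588), and it was called with MitoCoat and with MitoCoat-mRNA (edgeR adjusted p = 0.00253 and 0.0444). Fos was lower by log2 changes of -1.29, -1.47 and -1.13. Jun stayed nearest to control, with log2 changes of -0.28, -0.32 and 0.03 (edgeR adjusted p = 0.0665, 0.105 and 0.848). The counts were lower without some libraries, at 5 for mitochondria without its replicate 2, and at 4 and 5 for MitoCoat-mRNA without its replicates 2 and 3. Over all genes the lower calls went from 1916 to 1218 and from 1361 to 765 and 861 in the same fits.

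Ordered by mean, 9 members were highest in control, and for Jun the order was H2O2, MitoCoat-mRNA, control, mitochondria and MitoCoat. Control did not overlap its neighbour in the order for Fos, Junb, Atf3, Egr2, Nr4a1 and Dusp1. Among the stressed groups, neighbours overlapped for each member with the exception of Dusp1 and Jun, which were apart between MitoCoat-mRNA and mitochondria. For Jun, control stood between these groups and was apart from mitochondria, 518 CPM against 495 CPM at the nearest libraries. Means were lowest with MitoCoat for Fos, Jun, Egr1, Egr2, Egr3, Nr4a1 and Dusp1, and with MitoCoat-mRNA for Junb and Atf3. Fosb was lowest with mitochondria, at 79.5 ± 26.3 CPM (SD, n = 3), beside 80.4 ± 9.99 CPM with MitoCoat.

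The remaining values fill in this order. Egr1 was at 179, 153 and 93.8 CPM with mitochondria, 123, 118 and 107 CPM with MitoCoat and 185, 143 and 108 CPM with MitoCoat-mRNA, all under the lowest control of 228 CPM. Egr2 was at 6.56, 6.19 and 3.26 CPM with mitochondria and 9.37, 6.57 and 4.52 CPM with MitoCoat-mRNA, against the 4.06 to 4.84 CPM of MitoCoat. For both genes the MitoCoat libraries were the closest together, with a coefficient of variation of 7.17% for Egr1 and 8.77% for Egr2, whereas mitochondria and MitoCoat-mRNA libraries spread by 26.4 to 35.7%. Fosb, whose truncated splice form is known to persist after repeated stimulation, was at 93.1, 96.1 and 49.2 CPM with mitochondria, 68.8, 86.1 and 86.1 CPM with MitoCoat and 125, 101 and 69.0 CPM with MitoCoat-mRNA. Its MitoCoat-mRNA libraries overlapped control at 125 against 122 CPM. Fos was at 330, 322 and 223 CPM with mitochondria and 357, 342 and 272 CPM with MitoCoat-mRNA, ranges that overlap each other and the H2O2 libraries. Nr4a1 was at 46.4, 74.1 and 41.7 CPM with mitochondria, and its second library there lay among the H2O2 values. Junb with MitoCoat-mRNA was at 253, 201 and 166 CPM, within and below the H2O2 range. By rank per kilobase, Fos moved from 159 in control to 327 with H2O2 and 523 with MitoCoat, and Nr4a1 from 994 to 3053 and 4901, while Jun moved from 400 to 403 and 556.

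Because Fos fell and Jun did not, the balance of these AP-1 partners was taken in each library as the log2 ratio of Jun to Fos per kilobase of exon, a measure chosen after their values were seen. In control libraries it was -1.36, -1.34 and -0.93, so Fos exceeded Jun. With H2O2 it was -0.68, -0.27 and 0.17, and the third library held more Jun than Fos. Group means were -0.19 ± 0.31 with mitochondria, -0.07 ± 0.21 with MitoCoat and -0.04 ± 0.26 with MitoCoat-mRNA (SD, n = 3). The 4 stressed groups exceeded control by 0.95, 1.02, 1.14 and 1.17, without overlap, which is given as a description with no test since the ratio was chosen for this difference. Differences among the stressed groups were from -0.14 to 0.22 in the 6 comparisons made. Replicate 3 had the highest ratio in all 5 groups.

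**Figure D3:**
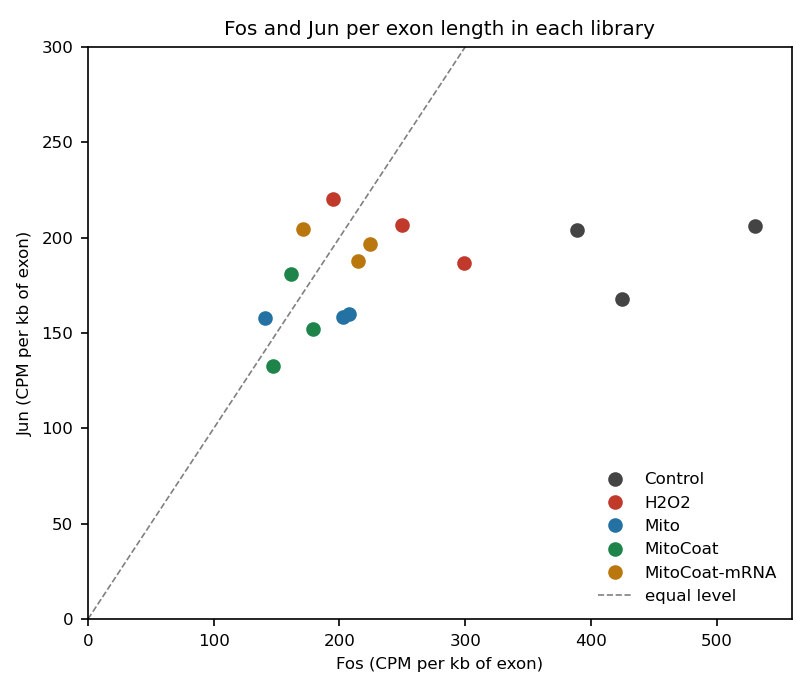
Level of Jun (vertical axis) against Fos (horizontal axis), both in CPM per kilobase of exon on linear axes from 0, with 1 point per library coloured by group and a dashed line of equal level. The 3 control libraries lie far to the right, at Fos levels of 389 to 531, while Jun ranges from 133 to 220 over all 15.

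Members also varied together within groups, along the replicate numbers of the labels. Replicate 1 was the highest library in 5 of 5 groups for Junb, Egr1 and Egr3, and in 4 of 5 for Fos, Atf3 and Egr2. Over the 16631 genes that passed the filter, 2.24% had replicate 1 highest in all 5, and a further 4.62% in 4 of 5. Egr3 moved most, with replicate 1 on average 0.70 above and replicate 3 0.68 below its group mean on the log2 scale. Nr4a1 differed from the Egr genes in this, with replicate 2 highest in 4 of 5 groups. Dusp1 and Jun had mean deviations of at most 0.06 and 0.10 in size. Labels give no batch or day for the numbers, so what the libraries with the same number share was not tested.

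**Figure D4:**
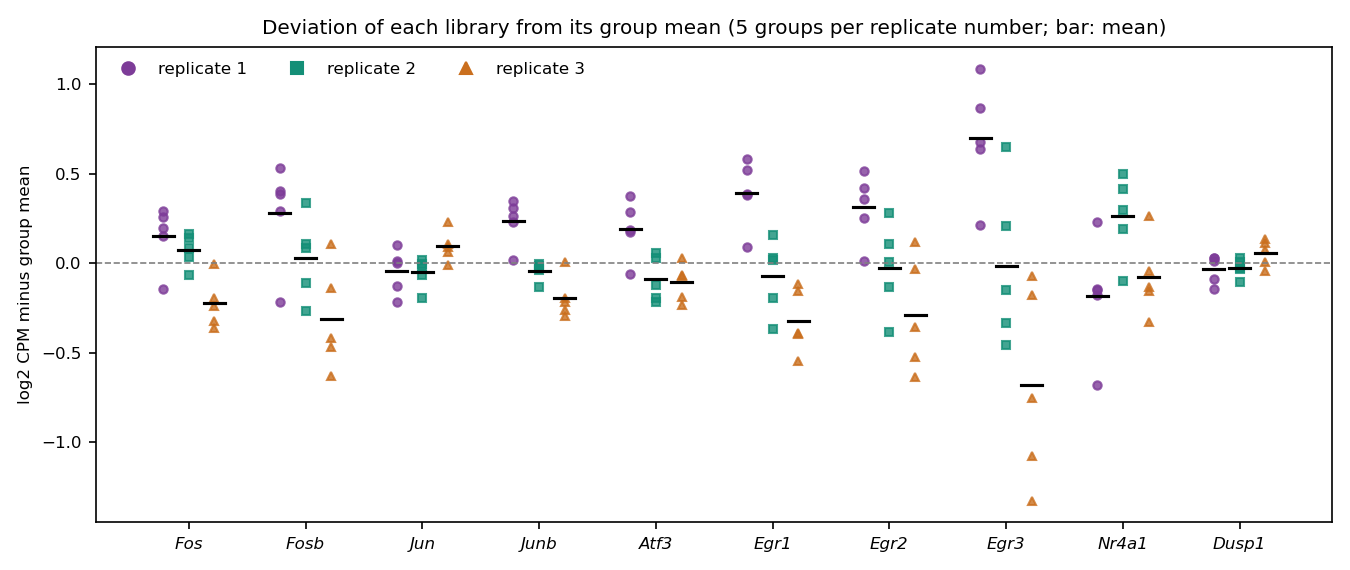
Log2 CPM of each library minus the mean of its group (vertical axis) for the 10 genes, split by replicate number, with 5 points (groups) per number and a bar for their mean. Replicate 1 lies above 0 in 5 of 5 groups for Egr1, Junb and Egr3, while Dusp1 and Jun scatter closely about 0.

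Over the 15 libraries, the members were compared with the mean of their standardized log2 CPM profiles, which each member helps to set. Pearson's r with this profile was highest for Egr2 (0.98) and Fos (0.98) and lowest for Jun (0.46) and Atf3 (0.69). Outside the members, the genes that passed the filter were searched. The most like the profile were ENSRNOG00000020102 on chromosome 1 (r = 0.96, Spearman's rho = 0.95) and ENSRNOG00000059116 on chromosome 12 (r = 0.96, rho = 0.96). These values are a description over 15 libraries in 5 groups that share the control difference. Further immediate early genes and cell type markers were not analysed here, since 0 of the 32552 identifiers matched a symbol in the table used.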

How the data were processed

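Per the labels and the study's methods, reads were adapter-trimmed (Trimmomatic) and mapped with STAR to the Rnor6.0 genome, and unique alignments over exons were summed per gene by featureCounts (Subread 1.5.2). The methods state strand-specific counting where it applied, without saying whether it did for these libraries, so reads of overlapping antisense genes may be included. The deposited values are raw counts, 1 file per library, and 1 further file, identical to that of a library, was not used. The members and lists were chosen with earlier results of these data known. In R 4.3.3, genes were filtered with filterByExpr and scaled by TMM, and edgeR 4.0.16's quasi-likelihood test was fitted to the 6 libraries of each comparison, with Benjamini-Hochberg adjustment over all genes tested. All 10 members passed the filter. Alternatives were DESeq2 1.42.0, RLE size factors, a minimal filter, all 15 libraries in one fit, the replicate number as a block, and each library left out. The block counts as pairing where every same-numbered pair had a correlation of deviations over 0.1. This held for mitochondria, MitoCoat-mRNA (each against H2O2), MitoCoat against mitochondria, mitochondria against MitoCoat-mRNA and MitoCoat-mRNA against control. Named genes outside the members were the 2 identifiers most correlated with the mean member profile. The tests were tried on simulated data first. Within each group, no library was a copy of another, and pairs from different groups were not checked for this. Figures used matplotlib 3.10.9.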

Additional observations from a re-analysis of the deposited data

How the results depend on the processing

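The number of members called held to within 1.5 times under RLE size factors in each of the 10 comparisons, and under the other settings except as follows. Mitochondria against H2O2 had 2 with DESeq2 and 6 with the replicate block. Of all genes, 425 and 600 were called lower there, against 270 with neither. MitoCoat against H2O2 had 3 with the minimal filter, 5 with DESeq2, 3 with the replicate block and 2 with all 15 libraries in one fit. Genes called lower rose there too, to 350, 492, 530 and 465, from 248 without these changes. Mitochondria against MitoCoat-mRNA had 4 with DESeq2, 5 with the replicate block and 1 with all 15 libraries in one fit. In either direction 868, 1141 and 579 of all genes were called there, against 554 without these changes. The minimal filter tests more genes, the block removes the spread between replicate numbers, and otherwise the cause was not tested. In H2O2, mitochondria and MitoCoat against control the block gave 7, 9 and 9 members lower, beside 974, 2284 and 1917 of all genes, and it moved no further number of members called by over 1.5 times. For MitoCoat against H2O2 the same-numbered correlations ran from -0.06 to 0.22, so the block was not counted as pairing there, and what the numbers share was not tested.

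Leaving out each library gave 1 to 7 members for H2O2 against control, and 0 to 1 for mitochondria and for MitoCoat against H2O2. All genes called ran from 376 to 1166, 254 to 444 and 201 to 430 in these fits. Mitochondria and MitoCoat against MitoCoat-mRNA had 0 to 2 members each (270 to 620 and 163 to 559 of all genes). Against control there were 5 to 9 members for mitochondria, 8 to 9 for MitoCoat and 4 to 7 for MitoCoat-mRNA. Of all genes, 2137 to 3793, 2155 to 3911 and 1249 to 2768 were called there. The number was 0 throughout, for members and for all genes, in MitoCoat-mRNA against H2O2 and MitoCoat against mitochondria. Only log2 changes of members that were not called turned sign, 27 values in all. Against H2O2, the log2 change then ran from -0.42 to 0.14 (Egr1) and -0.64 to 0.45 (Egr3) with mitochondria, and from -0.16 to 0.11 (Junb) and -1.06 to 0.0251 (Egr3) with MitoCoat. With MitoCoat-mRNA it ran from -0.38 to 0.15 (Fosb), -0.40 to 0.17 (Egr1), -0.47 to 0.0525 (Egr2), -1.06 to 0.22 (Egr3) and -0.0818 to 0.00187 (Dusp1). For MitoCoat against mitochondria it ran from -0.24 to 0.17 (Fosb), -0.16 to 0.0668 (Jun) and -0.0816 to 0.11 (Atf3). For mitochondria against MitoCoat-mRNA it ran from -0.26 to 0.0163 (Fos), -0.23 to 0.20 (Egr1), -0.15 to 0.73 (Egr3) and -0.13 to 0.33 (Nr4a1). For MitoCoat against MitoCoat-mRNA it ran from -0.55 to 0.31 (Egr3) and -0.38 to 0.11 (Nr4a1), and for Jun in MitoCoat-mRNA against control from -0.0561 to 0.0863. Egr3 had the lowest counts, 52 to 554 per library, and 3 libraries per group limit each comparison.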
